A study of Sus scrofa with 6 samples.

Results

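The genes described here build the immunoproteasome and the MHC class I antigen processing machinery. They were given as a list of 10 pig gene symbols, *PSMB8*, *PSMB9*, *PSMB10*, *PSME1*, *PSME2*, *TAP1*, *TAP2*, *B2M*, *NLRC5* and *CD74*, and were looked up by Ensembl identifier among the 30476 genes of the count matrix. Of these 10 symbols, 9 were matched to a row and all 9 passed the filter on low counts, which kept 13402 genes in all. *B2M*, the light chain of class I molecules, was not analysed here. RNA-seq was performed on longissimus dorsi, a muscle of the back, from 3 UCP1 KI pigs (KI1 to KI3) and 3 WT pigs (WT1 to WT3), all 6 months old, with 1 library per pig. The knock-in is adipocyte-specific, so that the inserted UCP1 is directed to fat cells and the muscle is a tissue that the transgene does not target. *UCP1* itself had no matched row, so the genotype was not checked from the counts. Neither the sex of the pigs nor their litters were given in the sources used here, and the p-values below measure the spread between these 6 samples.

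The proteasome is a barrel-shaped protease that degrades ubiquitin-tagged proteins. In cells exposed to interferon gamma, 3 catalytic subunits of the barrel, PSMB5, PSMB6 and PSMB7, are exchanged for PSMB8, PSMB9 and PSMB10, and the resulting immunoproteasome cuts proteins into peptides better suited to MHC class I. PSME1 and PSME2 together form the PA28 ring that caps the barrel, TAP1 and TAP2 form the transporter that carries peptides into the endoplasmic reticulum, and NLRC5 is the transactivator of class I genes. CD74, the invariant chain, belongs to the class II route and is made mainly by antigen-presenting cells. Resting muscle fibres carry little MHC class I.

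In the RefSeq annotation of Sscrofa11.1, the build named in the submitters' processing notes, 4 of these genes lie side by side on chromosome 7. They are *TAP2* (25045085 to 25056915), *PSMB8* (25058456 to 25061666), *TAP1* (25062772 to 25071989) and *PSMB9* (25072133 to 25077508), which together span 32.4 kb with no other RefSeq gene among them and with 143 bases between *TAP1* and *PSMB9*. *PSME2* (75154570 to 75157871) and *PSME1* (75161830 to 75164531) are also close neighbours on chromosome 7, and *PSME1* overlaps *EMC9*. Whether strand was used in counting was not given in the sources used here, so reads shared by *PSME1* and *EMC9* cannot be assigned with certainty. *PSMB10* (28544910 to 28547609) and *NLRC5* (18933179 to 19036288) are on chromosome 6 and *CD74* (151402210 to 151409924) is on chromosome 2.

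Counts on genes summed to between 30220951 and 35066624 per pig, and TMM scaling factors ran from 0.7813 in WT2 to 1.18 in KI2. A small set of the most abundant genes, of the same size in each pig, held 56.52% of the counts in WT2. In the other pigs it held 39.05% to 44.75%. Values are given as CPM, counts scaled to 1000000 of the TMM-scaled total, on which 3 counts correspond to between 0.0794 and 0.1095 CPM. Transcript lengths were not used, so levels are compared between pigs and not between genes. A gene was called when its unadjusted p in edgeR's quasi-likelihood test was under 0.05 and its log2 fold change exceeded 0.5 in size. Over all genes tested, 8.18% were called, 3.84% higher and 4.34% lower in UCP1 KI pigs, and 0.00% had a Benjamini-Hochberg adjusted p under 0.05. Of the calls, 47.0% were higher, and with library size as the only scaling this share was 82.6%. Muscle fibre markers were abundant in every pig, with a summed level of 66140 to 140500 CPM over the 7 that were measured, including *ACTA1*.

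None of the 9 immunoproteasome and antigen processing genes was called between UCP1 KI and WT muscle, against the background of 8.18%. In edgeR, 0 of 9 had an unadjusted p under 0.05, and in DESeq2 the number was also 0. The fitted log2 fold changes, UCP1 KI minus WT, ran from -0.55 for *NLRC5* to 0.44 for *TAP2*, with 5 genes above 0, against 48.7% of all genes, 4 below 0, and a median of 0.11, compared with a median of -0.02 over all genes tested. The groups overlapped for all 9 genes, whereas they did not overlap for 15.3% of all genes. The 95% confidence interval of the fold change held a log2 change of 1 in at least 1 direction for 8 of the 9 genes, with *PSME1* the exception, so that changes of that size could not be resolved with 3 pigs against 3. In whole muscle, fewer cells of a type and less RNA per cell cannot be told apart.

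Among the catalytic subunits, *PSMB8* (ENSSSCG00000026951), which replaces PSMB5, was measured at 45.3, 76.6 and 12.9 CPM in KI1 to KI3 and at 25.6, 65.4 and 17.3 CPM in WT1 to WT3. KI2 and WT2 were the highest and KI3 the lowest, and the groups overlapped over almost their whole range. UCP1 KI pigs averaged 44.9 ± 31.9 CPM (SD, n = 3) against 36.1 ± 25.7 CPM for WT, which gave a fitted log2 difference of 0.32 ± 0.68 (SE; edgeR, 95% interval -1.27 to 1.91, adjusted p = 0.909). It turned to -0.31 without KI2 and was 1.07 without WT2. The raw counts of *PSMB8* ran from 488 to 2734 per pig.

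*PSMB9* (ENSSSCG00000001463), which replaces PSMB6, stood at 13.7, 24.3 and 4.58 CPM in KI1 to KI3 and at 7.94, 33.2 and 5.503 CPM in WT1 to WT3. WT2 was the highest pig and KI2 the next, and KI3 was again the lowest. The fitted log2 fold change was -0.13 ± 0.78 (SE; edgeR, 95% interval -1.95 to 1.69, adjusted p = 0.974), the widest interval among the 9 genes. Its sign depended on single pigs, from -0.77 without KI2 to 1.08 without WT2, and neither value passed the test.

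*PSMB10* (ENSSSCG00000031781), which replaces PSMB7, had 17.4, 29.5 and 8.84 CPM in KI1 to KI3 and 14.2, 31.5 and 10.3 CPM in WT1 to WT3. The order of the pigs was that of *PSMB9*, with WT2 and KI2 on top and KI3 at the bottom. The group means, 18.6 ± 10.4 and 18.7 ± 11.3 CPM (SD, n = 3 each), gave a log2 fold change of -0.01 ± 0.54 (SE; edgeR, adjusted p = 0.996), with -0.52 without KI2 and 0.60 without WT2.

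**Figure D1:**
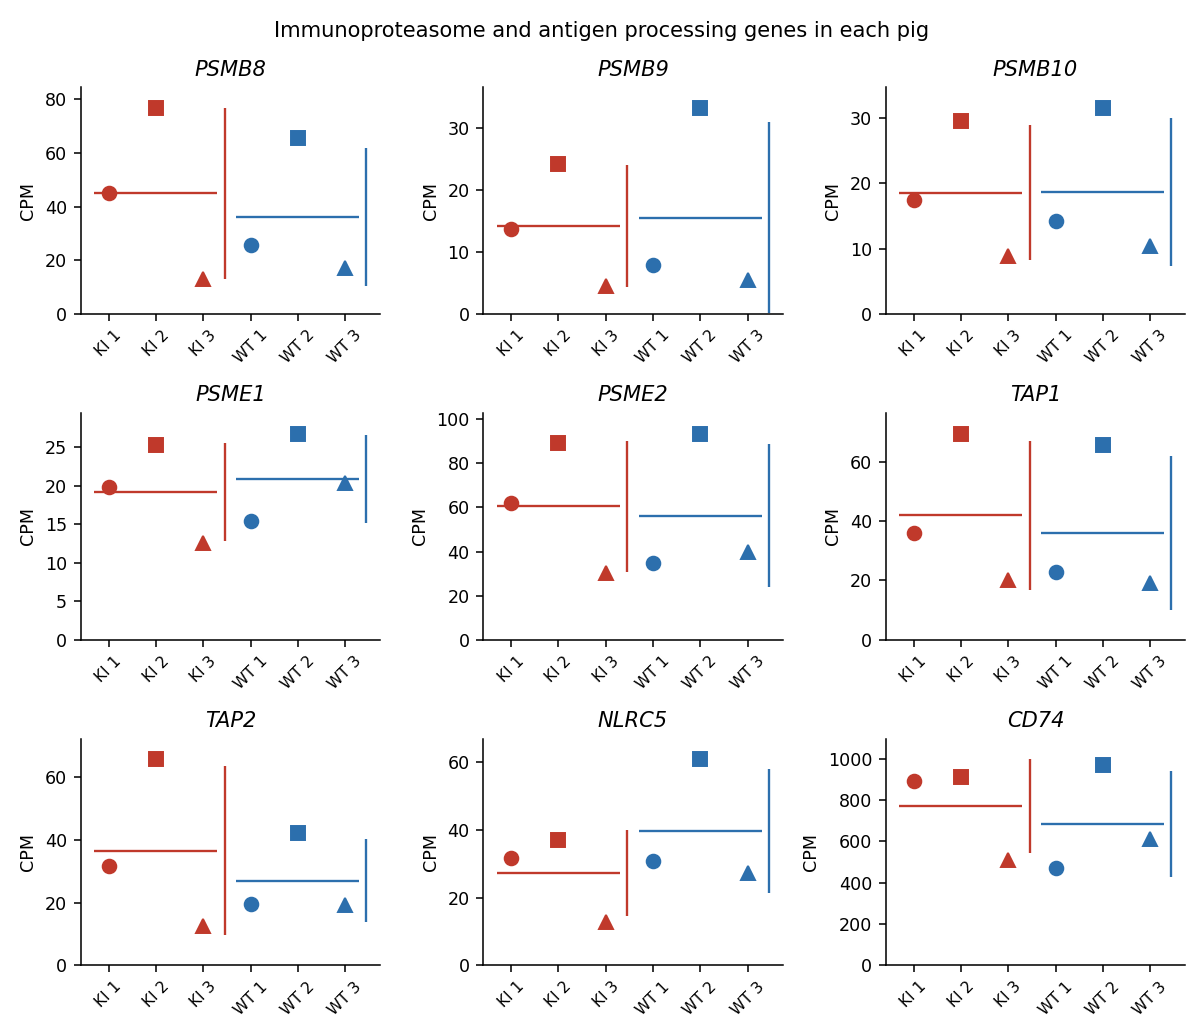
Level of each of the 9 genes in every pig, in TMM-scaled CPM on axes that start at 0, with points for the 3 UCP1 KI (red) and 3 WT (blue) pigs, a horizontal line for the group mean and a vertical line for the mean ± SD. In every panel the groups overlap, and KI2 and WT2 are the highest pigs.

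The PA28 genes varied less between pigs. *PSME1* (ENSSSCG00000002006), the alpha subunit, stood at 19.9, 25.2 and 12.6 CPM in KI1 to KI3 and at 15.4, 26.8 and 20.3 CPM in WT1 to WT3. The groups overlapped, with KI3 lowest and WT2 highest. Its log2 fold change was -0.12 ± 0.33 (SE; edgeR, 95% interval -0.89 to 0.65, adjusted p = 0.934), the narrowest interval of the 9, and it turned to 0.11 without KI3 and 0.10 without WT2. *PSME2* (ENSSSCG00000002004), the beta subunit, had 62.0, 89.2 and 30.2 CPM in KI1 to KI3 and 35.04, 93.5 and 40.0 CPM in WT1 to WT3. WT2 and KI2 were the highest, KI1 lay between, and the remaining 3 pigs were low. Its fold change on the log2 scale was 0.11 ± 0.50 (SE; edgeR, 95% interval -1.05 to 1.26, adjusted p = 0.964), with -0.29 without KI2 and 0.69 without WT2.

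For the peptide transporter, *TAP1* (ENSSSCG00000025618) was measured at 36.1, 69.5 and 20.3 CPM in KI1 to KI3 and at 22.8, 65.8 and 19.2 CPM in WT1 to WT3. KI2 exceeded KI3 3.43-fold, WT2 exceeded WT3 3.43-fold, and the groups overlapped. The fit gave a log2 fold change of 0.22 ± 0.59 (SE; edgeR, 95% interval -1.14 to 1.59, adjusted p = 0.927), with -0.36 without KI2 and 1.0 without WT2. Its partner *TAP2* (ENSSSCG00000025593) had 31.5, 65.6 and 12.4 CPM in KI1 to KI3 and 19.6, 42.1 and 19.2 CPM in WT1 to WT3. KI2 was the highest and KI3 the lowest pig, both within the UCP1 KI group. The log2 fold change of 0.44 ± 0.59 (SE; edgeR, 95% interval -0.93 to 1.80, adjusted p = 0.858) was the highest of the 9 genes and fell to -0.30 without KI2.

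*NLRC5* (ENSSSCG00000039751), the class I transactivator, stood at 31.8, 37.1 and 12.9 CPM in KI1 to KI3 and at 30.9, 60.9 and 27.5 CPM in WT1 to WT3. WT2 alone exceeded the UCP1 KI range, and KI3 alone fell below the WT range. UCP1 KI pigs averaged 27.2 ± 12.7 CPM (SD, n = 3) against 39.8 ± 18.4 CPM for WT, which gave a fitted log2 difference of -0.55 ± 0.46 (SE; edgeR, 95% interval -1.62 to 0.53, adjusted p = 0.766). *NLRC5* was the only one of the 9 genes that lay further from 0 than 0.5, and the only one whose sign was kept in all 13 alternative fits. It did not pass the test in any of them, and its value moved between -0.83 and -0.10 when single pigs were left out.

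*CD74* (ENSSSCG00000033262), the invariant chain of class II molecules, had 891, 910 and 509 CPM in KI1 to KI3 and 473, 969 and 610 CPM in WT1 to WT3. WT2 was the highest and WT1 the lowest pig, so the UCP1 KI values lay inside the WT range. Its log2 fold change was 0.17 ± 0.38 (SE; edgeR, 95% interval -0.71 to 1.05, adjusted p = 0.913), with -0.04 without WT1 and 0.51 without WT2.

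The proteasome subunits that every cell uses were compared in the same fit, and the difference between the lists was not tested. Of 36 genes listed as constitutive subunits of the 20S barrel and the 19S regulatory cap, 32 were matched and tested (*PSMA6*, *PSMB5*, *PSMB6* and *SEM1* were not analysed here), 31 had a fold change above 0 and 13 were called higher in UCP1 KI muscle, against the background of 3.84%. None was called lower, and the median log2 fold change was 0.62, against -0.02 over all genes tested. The groups did not overlap for 8 of 32, against 15.3% of all genes. Of all genes, 48.7% had a fold change above 0. The list includes *PSMD5*, *PSMD9* and *PSMD10*, which carry subunit names but encode assembly chaperones of the cap. Without them, all 29 subunits were above 0, 13 were called and the median was 0.72. The smallest adjusted p in edgeR was 0.583, so 0 of 32 passed after adjustment. Of these 32 genes, 26 were not named in the running text of the published account of the same pigs (its figures were not searched), and 8 of those 26 were called, with a median of 0.49. The other 6 were singled out on these samples. The published account also reported the proteasome complex as enriched among the changed genes of the same pigs. Neither the named nor the unnamed subunits are therefore independent evidence of a direction.

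Within the barrel, 4 of 11 subunits were called, with a median log2 fold change of 0.48. *PSMB4*, a structural beta subunit, stood at 243.9, 323.9 and 441.6 CPM in KI1 to KI3 and at 174.7, 186.0 and 220.4 CPM in WT1 to WT3. Every UCP1 KI pig lay above every WT pig. This log2 fold change was 0.80 ± 0.29 (SE; edgeR, unadjusted p = 0.0271, adjusted p = 0.583). *PSMA1*, an alpha subunit, was called at 0.98, and *PSMB2* and *PSMB3*, both beta subunits, at 0.72 and 0.74, while *PSMA5* was the lowest at 0.26. *PSMB7*, the subunit that PSMB10 replaces, had 139.8, 165.3 and 232.2 CPM in KI1 to KI3 and 114.9, 134.9 and 154.4 CPM in WT1 to WT3. Its groups overlapped, and its log2 fold change of 0.41 was not called (edgeR, adjusted p = 0.702).

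In the 19S cap, 9 of the 21 genes listed were called, with a median of 0.66. *PSMD11*, a lid subunit, was measured at 157.6, 300.3 and 241.5 CPM in KI1 to KI3 and at 89.0, 64.2 and 127.9 CPM in WT1 to WT3. The groups did not overlap, and the log2 fold change of 1.31 ± 0.36 (SE; edgeR, unadjusted p = 0.00667, adjusted p = 0.583) was called in all 6 fits that left out a pig. *PSMC4*, an ATPase of the base, was called at 0.97, the scaffold subunits *PSMD1* and *PSMD2* at 0.99 and 0.96, the ubiquitin receptor *ADRM1* at 0.76 and *PSMD6* at 0.79. The chaperone gene *PSMD5* was the lowest of the list at -0.25, turned to 0.20 without KI1, and was not called.

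The number of constitutive subunits called rested on single pigs. It was 3 without KI2, 1 without KI3, 2 without WT1 and 1 without WT2, compared with 15 without KI1 and 16 without WT3. The median log2 fold change stayed between 0.45 and 0.61 in the fits without KI2, KI3, WT1 or WT2. For the immunoproteasome and antigen processing genes the number called was 0 in every fit, and their median moved further, to -0.36 without KI2, -0.15 without WT1, -0.09 without WT3, 0.05 without KI1, 0.40 without KI3 and 0.69 without WT2. Without WT2 the median of the 9 genes thus exceeded that of the constitutive subunits, 0.60, of which 1 was called. With library size as the only scaling, which moved the median of all genes by 0.25 on the log2 scale, 21 constitutive subunits were called, with a median of 0.90. The median of the 9 genes was then 0.44, and *PSMB9*, *PSMB10* and *PSME1* changed sign to 0.25, 0.32 and 0.18, again with 0 called.

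**Figure D2:**
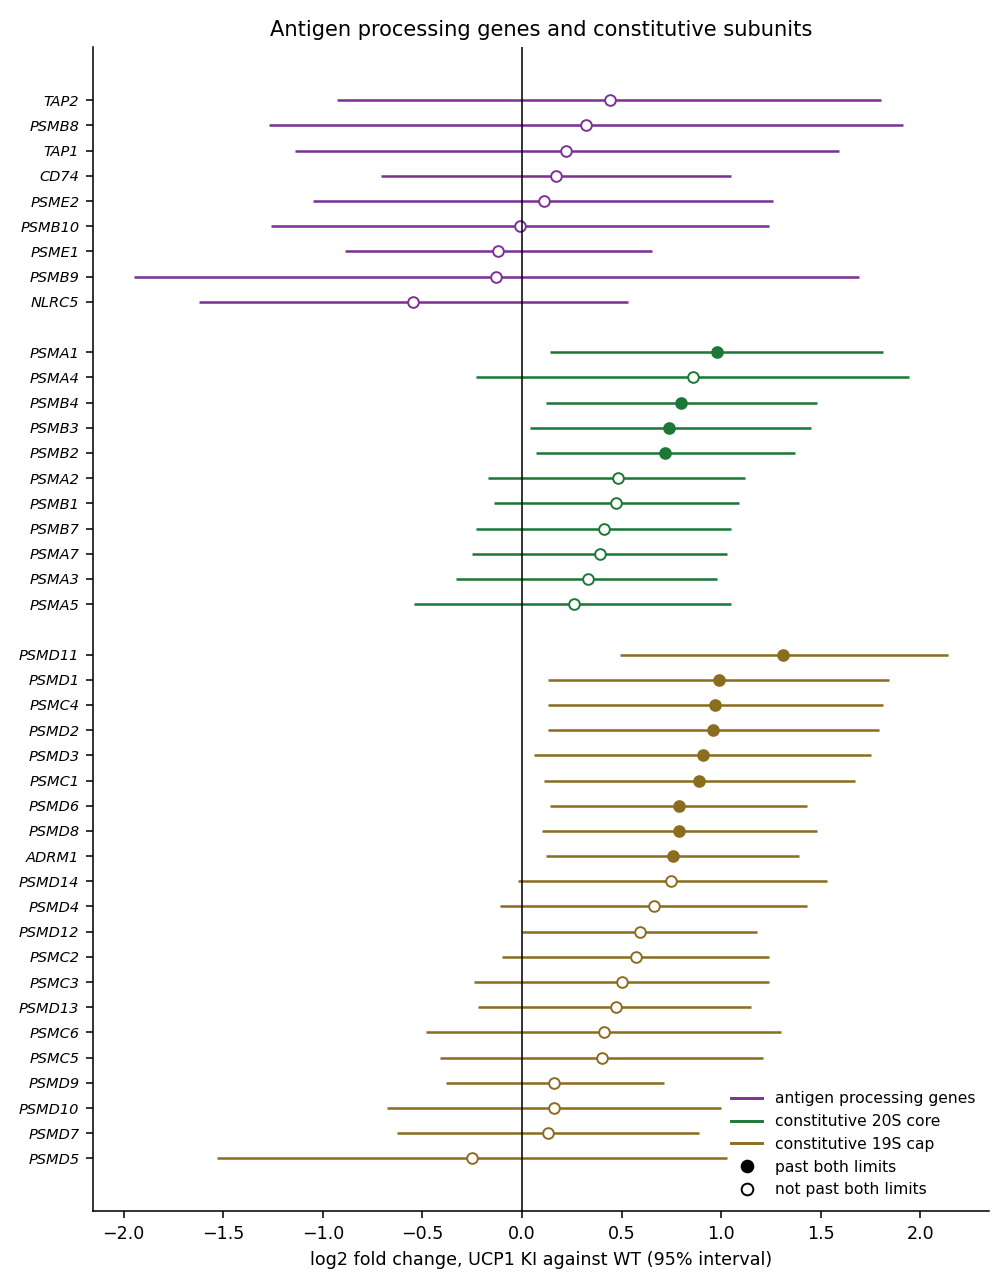
Log2 fold change, UCP1 KI minus WT, with its 95% confidence interval from edgeR, for the 9 immunoproteasome and antigen processing genes and for the 32 constitutive subunits, with filled points for called genes. The 9 genes scatter around 0 with a median of 0.11, and 31 of the 32 constitutive subunits lie above 0 with a median of 0.62, medians that were 0.69 and 0.60 without WT2.

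Because immune and constitutive subunits take the same place in the particle, their balance was compared as the log2 ratio of counts in each pig. *PSMB10* over *PSMB7* was -3.0, -2.49 and -4.71 in KI1 to KI3 and -3.02, -2.10 and -3.90 in WT1 to WT3. KI3 was lowest, WT2 highest, and the groups overlapped. The difference between the group means was -0.40 (two-sided exact permutation test, p = 0.7), and it turned to 0.26 without KI3 and 0.06 without WT2. The ratio takes no account of gene length, so its differences between pigs can be read and its level cannot.

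The PA28 ratios also differed by less than 0, with overlapping groups. Only *PSME2* over *PSME3* changed sign when a pig was left out. *PSME1* over *PSME3*, the PA28 gamma subunit of the nucleus, was 0.16, -0.66 and -1.79 in KI1 to KI3 and 0.06, 0.18 and -0.25 in WT1 to WT3. The difference of -0.76 came with a spread of 0.98 (SD, n = 3) among UCP1 KI pigs (two-sided exact permutation test, p = 0.3). Without KI3 it was -0.24. *PSME1* over *PSMD1*, a measure of PA28 against the 19S cap, was -2.19, -2.33 and -3.74 in KI1 to KI3 and -1.49, -1.08 and -2.22 in WT1 to WT3. Only KI1 reached into the WT range. Its difference of -1.16 was the furthest from 0 of all ratios formed (two-sided exact permutation test, p = 0.2, where 0.1 is the smallest p that 3 pigs against 3 allow), and it was -0.67 without KI3. *PSME2* differed by -0.50 against *PSME3* and by -0.90 against *PSMD1*, with p = 0.6 and p = 0.4 in the same exact test, and these differences were 0.17 and -0.26 without KI3.

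Within the immune subunits themselves the ratios were far tighter. *PSMB8* over *PSMB9* was 1.72, 1.66 and 1.49 in KI1 to KI3 and 1.69, 0.98 and 1.64 in WT1 to WT3. All pigs except WT2 lay between 1.49 and 1.72, although *PSMB8* itself varied several-fold among them. The difference was 0.19 (two-sided exact permutation test, p = 0.6). *TAP1* over *TAP2* differed by 0.04 (p = 0.8 in the same exact test). The adjusted p over these 7 ratios was 0.8 for each, and the groups overlapped in all 7. The ratios of *PSMB8* to *PSMB5* and of *PSMB9* to *PSMB6* could not be formed. With *PSMB7* in their place, a choice made after the data were seen, the differences were -0.18 for *PSMB8* and -0.36 for *PSMB9* (exact permutation tests, p = 0.9 and p = 0.8), and both turned positive, 0.75 and 0.50, without KI3.

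**Figure D3:**
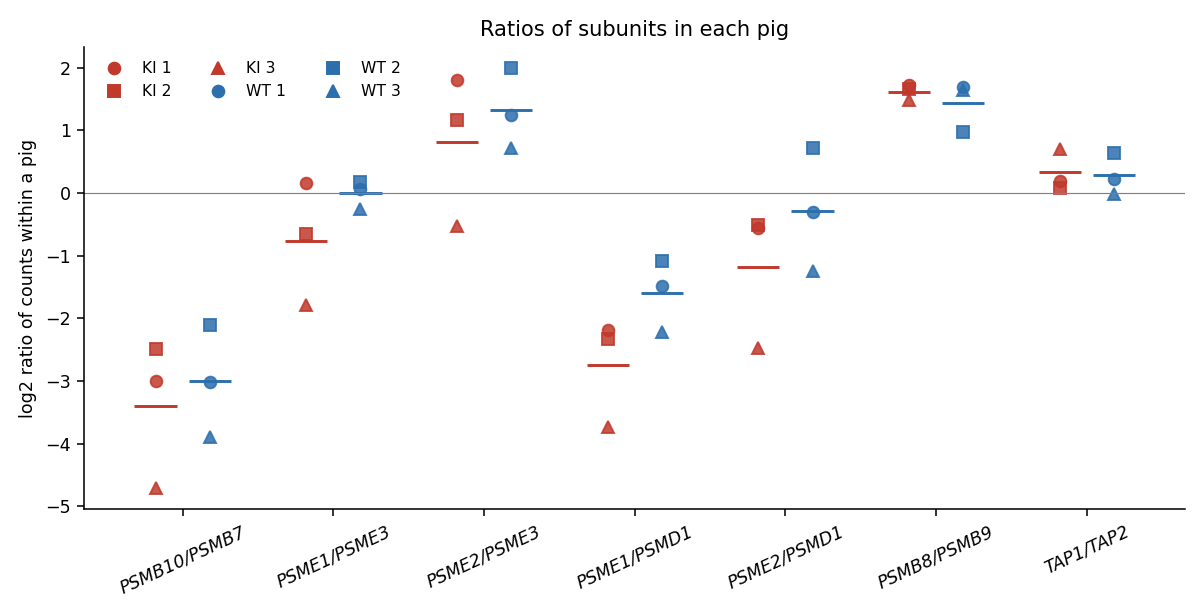
Log2 ratio of counts of immune to constitutive subunits and within the immune genes in each UCP1 KI (red) and WT (blue) pig, with a line at the mean of each group of 3. All ratios overlap between UCP1 KI and WT pigs, and KI3 is the lowest pig in every ratio of an immune to a constitutive subunit.

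The spread among pigs of the same genotype was large for the immunoproteasome genes, and it took the same form in all of them. This pattern was seen in the values before it was counted and is given as a description. KI2 and WT2 were the highest 2 of the 6 pigs for 9 of the 9 genes, compared with 1 of the 32 constitutive subunits and 6.10% of all genes tested. KI3 was the lowest pig for 7 of 9 genes, with *TAP1* lowest in WT3 and *CD74* lowest in WT1, whereas KI3 was the lowest for 17.3% of all genes. For the constitutive subunits KI3 was the highest pig in 29 of 32, compared with 19.2% of all genes.

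Within the UCP1 KI group, KI2 exceeded KI3 by 1.79-fold to 5.93-fold across the 9 genes. The constitutive subunits went the other way, with KI2 above KI3 for only 3 of 32 and ratios between 0.484 and 2.10. Within the WT group, WT2 exceeded WT3 by 1.32-fold to 6.04-fold for the 9 genes, compared with 0.502 to 1.18 for the constitutive subunits. The median SD of log2(CPM + 1) among pigs was 0.817 in UCP1 KI and 0.755 in WT for the 9 genes, 0.410 and 0.357 for the constitutive subunits, and 0.271 and 0.325 for all genes tested. The geometric mean of the 32 constitutive subunits was 83.2, 116.2 and 144.1 CPM in KI1 to KI3 and 58.0, 76.1 and 92.1 CPM in WT1 to WT3, an order that no immunoproteasome gene followed. KI2 and WT2 are also the pigs with the highest and the lowest TMM factor, and the part of scaling in this pattern was not tested.

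**Figure D4:**
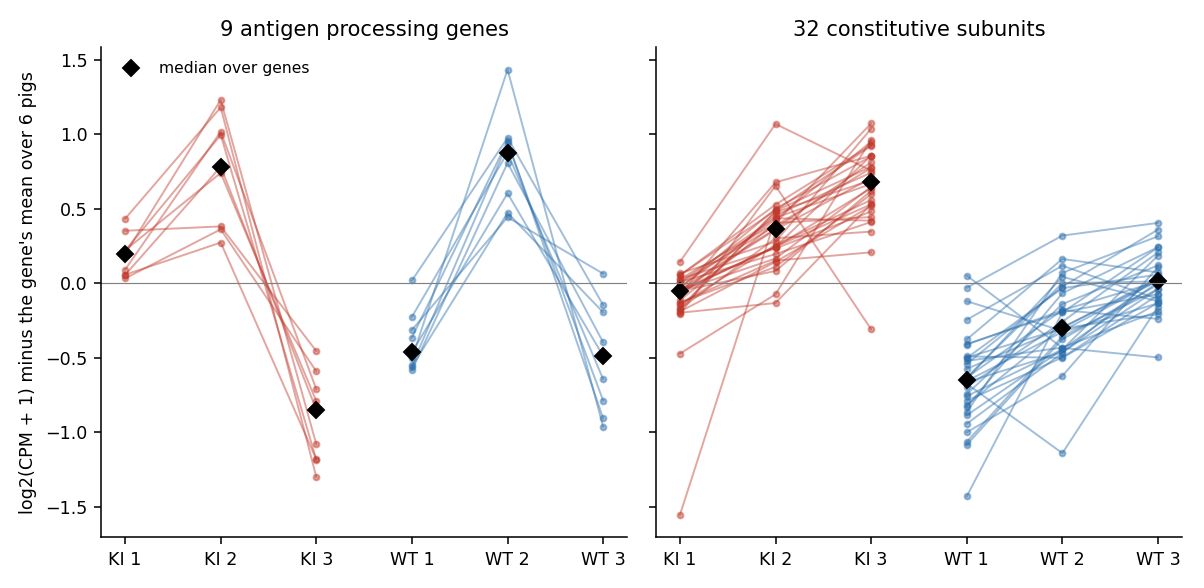
Log2(CPM + 1) of each gene minus its mean over the 6 pigs, for the 9 immunoproteasome and antigen processing genes and for the 32 constitutive subunits, with lines that join the values of a gene and imply no order of pigs, and diamonds at the median over genes. The 9 genes peak in KI2 and WT2, and the constitutive subunits are highest in KI3 for 29 of 32.

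Other regulators of the barrel were called in neither direction. Of 11 activators, inhibitors and assembly factors, 6 were tested, 5 of them above 0 with a median log2 fold change of 0.54. *PSME3* had the highest value, 0.69, and was called at 1.0 without KI1, *PSMF1*, an inhibitor of the barrel, stood at 0.58 and the assembly chaperone *PSMG3* was the lowest at -0.29. *PSMA8* and *PSMB11*, the testis and thymus forms of barrel subunits, had 0 counts in all pigs. NRF1 and NRF2 drive constitutive subunit genes, and their part in the levels seen here was not tested. Of 7 genes of these factors, their partners and regulators, among them the NRF2 repressor *KEAP1* and the NRF1-processing enzyme *NGLY1*, 5 were tested and 1 was called, against the background of 8.18%. *NFE2L1*, which encodes NRF1, had 248.5, 395.7 and 327.7 CPM in KI1 to KI3 and 219.4, 128.9 and 212.6 CPM in WT1 to WT3. The groups did not overlap, the log2 fold change was 0.79 (edgeR, unadjusted p = 0.0361, adjusted p = 0.602), and the call was lost without KI2, KI3 or WT2, at 0.61, 0.78 and 0.58. *NFE2L2*, which encodes NRF2, was the lowest at -0.22, and turned to 0.24 without KI1 and 0.38 without WT1.

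Around the transporter, 12 genes of peptide loading and trimming were tested, among them the cytosolic peptidases *TPP2*, *NRDC* and *THOP1*, 9 of them above 0, with a median of 0.23 and 2 called higher, against the background of 3.84%. *HSPA5*, the general endoplasmic reticulum chaperone BiP, stood at 243.5, 375.1 and 103.7 CPM in KI1 to KI3 and at 79.8, 69.2 and 92.9 CPM in WT1 to WT3. Every UCP1 KI pig exceeded every WT pig. The log2 fold change of 1.58 ± 0.45 (SE; edgeR, unadjusted p = 0.00834, adjusted p = 0.583) was called in all 6 fits that left out a pig. *TAPBPL*, which encodes the peptide editor TAPBPR, had 12.8, 20.4 and 14.4 CPM in KI1 to KI3 and 12.4, 5.51 and 7.204 CPM in WT1 to WT3. Its groups also did not overlap, by a narrow margin between KI1 and WT1. It was called at 0.92 (edgeR, unadjusted p = 0.0355, adjusted p = 0.595), and the call was lost without KI2, KI3, WT2 or WT3, at 0.68, 0.98, 0.69 and 0.82. *TAPBP*, which encodes tapasin, the bridge between TAP and class I molecules, was at 0.62 and was not called (edgeR, adjusted p = 0.701), although it was called at 1.13 without WT2 and stood at 0.32 without KI2. The lectin chaperone *CANX* was the lowest at -0.81. That value turned to 0.48 without WT1, which held 74.0 CPM of *CANX* against 6.94 to 30.2 CPM in the other 5 pigs.

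The class I heavy chains themselves could not be followed. Of 14 class I genes and relatives, 2 were matched, *MR1*, which presents vitamin metabolites, at a log2 fold change of 0.29 that was -0.20 without WT3 and 1.35 without WT1, and *FCGRT*, the neonatal Fc receptor, at 0.00, and neither was called. On the class II side, which *CD74* serves, 8 of 13 genes were tested, 4 above and 4 below 0, with a median of 0.01 and 0 called. KI2 and WT2 were the highest pigs for 7 of these 8. *SLA-DOA*, a chain of the peptide-editing modulator DO, had the highest fold change, 0.65, which was -0.54 without KI2 and was called at 2.44 without WT2. *CIITA*, the class II transactivator and a relative of *NLRC5*, had 7.53, 60.2 and 2.28 CPM in KI1 to KI3 and 40.3, 47.2 and 41.3 CPM in WT1 to WT3. The WT pigs were close together, whereas KI2 lay above and KI1 and KI3 far below all of them. Its log2 fold change was -0.88 (edgeR, adjusted p = 0.824), and without KI2 it was -3.13 and was called.

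Of 13 transcription factors of the MHC genes, *CIITA* included, 8 were above 0 and 0 were called, with a median of 0.06. *IRF1*, the direct activator of *PSMB9* and *TAP1*, stood at 37.8, 59.8 and 11.3 CPM in KI1 to KI3 and at 23.5, 69.4 and 13.9 CPM in WT1 to WT3. Its order of pigs was that of *PSMB9*, and its log2 fold change was 0.03 (edgeR, adjusted p = 0.993), with -0.54 without KI2 and 0.96 without WT2.

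Of 13 genes tested for the interferon gamma receptor and its signalling, 10 were above 0, the median was 0.40 and 1 was called, against the background of 8.18%. *JAK1*, the kinase bound to the receptor, was called higher at 0.60 (edgeR, unadjusted p = 0.0432, adjusted p = 0.603). That call was kept without KI1 and lost without any other pig, at 0.58 without KI2, 0.44 without KI3, 0.50 without WT1, 0.64 without WT2 and 0.65 without WT3. *SOCS3*, a feedback inhibitor, had 165, 89.5 and 5.003 CPM in KI1 to KI3 and 19.6, 34.5 and 11.3 CPM in WT1 to WT3. The UCP1 KI values lay on both sides of the WT range, and the log2 fold change of 1.99 was not called (edgeR, adjusted p = 0.636), although it was without KI3, at 2.55. *STAT2*, a factor of the type I interferon route, was the lowest at -0.57 and turned to 0.20 without WT2, and *IFNG* itself was too low to be tested.

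Of 25 other interferon-stimulated genes, 8 were above and 17 below 0, with a median log2 fold change of -0.64, 0 called higher and 2 called lower, against the background of 4.34% lower. Single pigs moved many of these values. With a pig left out, *ISG15* ran from -1.76 to 0.07, *BST2* from -1.25 to 0.31 and *MX1* from -1.79 to -0.47. The median of all pathway lists together was 0.10, and it was -0.31 without KI2 and 0.24 without WT2. For this list alone it was not followed with pigs left out. *IFI6*, an interferon-induced membrane protein, stood at 28.3, 36.5 and 20.4 CPM in KI1 to KI3 and at 49.0, 255.3 and 81.8 CPM in WT1 to WT3. All UCP1 KI pigs were below all WT pigs. The log2 fold change was -2.18 ± 0.60 (SE; edgeR, unadjusted p = 0.00742, adjusted p = 0.583), and it was -1.20 without WT2 and remained called. In DESeq2 on the same genes its adjusted p was 0.0312, the only one under 0.05 among the pathway lists. *USP18*, an inhibitor of type I interferon signalling, was called at -1.10 (edgeR, unadjusted p = 0.0246, adjusted p = 0.583), and the call was lost without KI1, KI3 or WT2, at -1.0, -0.94 and -0.70. *CXCL9*, a chemokine induced by interferon gamma, was the highest at 1.66 and was not called (edgeR, adjusted p = 0.730). Without WT2 it was called at 3.53, and without KI2 it was 0.52.

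For 15 of these 25 genes KI2 and WT2 were the highest pigs. The examples that follow were chosen after their values were seen. *GBP1*, an interferon-induced GTPase, had 57.0, 187 and 10.3 CPM in KI1 to KI3 and 11.2, 164 and 18.5 CPM in WT1 to WT3. *CXCL10*, a chemokine of the same family as *CXCL9*, had 20.5, 97.4 and 2.49 CPM in KI1 to KI3 and 0.992, 54.8 and 3.17 CPM in WT1 to WT3. For both genes KI2 and WT2 stood above the other 4 pigs, as they did for the 9 immunoproteasome and antigen processing genes.

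**Figure D5:**
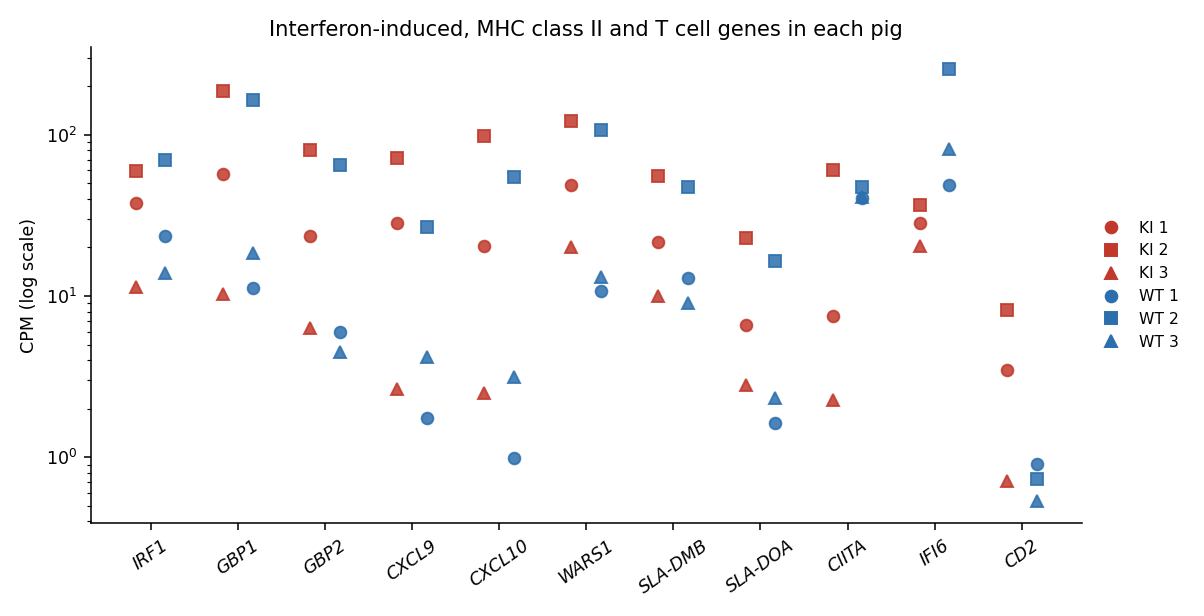
Levels in CPM on a log axis in each UCP1 KI (red) and WT (blue) pig for 11 interferon-related, MHC class II and T cell genes. KI2 and WT2 are high for *GBP1*, *CXCL10* and *IRF1*, whereas *IFI6* is lower in all 3 UCP1 KI pigs than in all 3 WT pigs.

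Markers of other cell types in the muscle were examined beside these results, since leukocytes and endothelial cells express the same machinery. Of 30 leukocyte markers, 22 were tested, 17 were above 0, the median log2 fold change was 0.68 and 4 were called higher, against the background of 3.84%. They were *CD2*, *CD3E*, *PRF1* and *ITGAM*, with overlapping groups and an adjusted p of 0.583 in edgeR for each. Those 4 calls were all lost without KI2, at 1.52, 0.94, 1.75 and 1.21, and without WT3, at 2.32, 1.94, 2.49 and 1.24. *CD3E* and *PRF1* also lost theirs without WT1 (2.03 and 3.10) or WT2 (1.58 and 2.95), and *ITGAM* lost its call without KI1 (1.3). The summed level of the leukocyte markers was 224.7, 311.1 and 124.9 CPM in KI1 to KI3 and 140.5, 222.4 and 154.5 CPM in WT1 to WT3. KI2 was thus the highest and KI3 the lowest, KI1 lay just above WT2, and among WT pigs WT2 was the highest. Marker by marker, KI2 and WT2 were the highest pigs for 6 of the 22 tested. KI3 was the lowest pig for 5 of the 22. *LYZ* had 0 counts in all pigs, and the B cell marker *MS4A1* was near 0 while *CD79A* ran from 73.7 to 113.1 CPM. Without *CD79A* the sum was 121.6, 198 and 48.1 CPM in KI1 to KI3 and 66.8, 117.3 and 45.1 CPM in WT1 to WT3, with WT3 the lowest pig. The part of these cells in the levels of the immunoproteasome genes was not tested.

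Endothelial markers summed to 715.8, 760.4 and 437.9 CPM in KI1 to KI3 and to 755.5, 646.3 and 408.4 CPM in WT1 to WT3. Their median log2 fold change was 0.05 and 1 of 10 was called, *TEK*, against 8.18% of all genes. KI3 and WT3 were the low pigs, and the part of endothelial cells in the levels of the 9 genes was not tested. Adipocyte markers summed to 71.0, 136.8 and 96.2 CPM in KI1 to KI3 and to 72.7, 301.6 and 95.6 CPM in WT1 to WT3, and *FABP4*, which endothelial cells also make, held 83.6 CPM of this sum in KI2 and 253.1 CPM in WT2. WT2 and KI2 were the highest pigs for 1 of the 6 adipocyte markers tested. The part of fat cells in the levels of the 9 genes was not tested. Muscle fibre markers had a median of -0.30 with 0 of 7 called, fibroblast markers a median of -0.48 with 4 of 8 called lower (*COL1A1*, *COL1A2*, *COL3A1* and *LUM*), adipocyte markers a median of -0.96 with *LIPE* called higher among 6, and red blood cell markers a median of -1.37 with *HBM* called lower among 4. Over all genes tested, 3.84% were called higher and 4.34% lower. *LUM* kept its call in the fit without WT3 and lost it without each other pig, at -0.65 to -0.45, *COL3A1* lost it without WT2, at -1.3, and *HBM* kept it in 2 of 6 such fits. The adipocyte markers *ADIPOQ*, *PLIN1*, *CIDEC* and *FABP4*, at -1.26, -1.13, -0.80 and -1.22, were not called and stood at -0.26, -0.03, 0.00 and -0.08 without WT2. *ADIPOQ* and *FABP4* were called without WT1, at -1.77 and -1.65. *TEK*, *COL1A1* and *COL1A2* were called in all 6 fits and had adjusted p values of 0.00408, 4.44e-05 and 0.00406 in DESeq2 on the same genes.

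The genes whose profile over the 6 pigs came closest to a given gene were found by the root mean square difference of log2(CPM + 1) after centring. For *PSMB8*, whose own root mean square deviation was 0.925, these were *C1QB* at 0.165, *C1QC* at 0.174 and *CLIC2* at 0.175. *C1QB* and *C1QC* encode chains of complement C1q, which is made mainly by macrophages. *C1QB* had 22.9, 46.4 and 8.604 CPM in KI1 to KI3 and 14.6, 31.6 and 10.3 CPM in WT1 to WT3. For *NLRC5*, with a deviation of 0.638, the nearest were *MOV10*, an RNA helicase, at 0.0828, *PALM2AKAP2* at 0.0958 and *RCN1* at 0.138. For *CD74*, with a deviation of 0.419, they were *SLC1A1* at 0.0940, *NOL6* at 0.108 and *SLC39A1* at 0.113. With 6 pigs and 2705 or more candidate genes for each comparison, likeness of this kind is a description of these samples.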

How the data were processed

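The authors extracted RNA from muscle, made mRNA libraries and sequenced paired ends. The submitters' processing notes name FastQC 0.11.2, Trimmomatic 0.36, HISAT2 2.0, StringTie 1.3.3b, bedtools 2.26.0, DESeq2 1.12.4 and the build Sscrofa11.1. The annotation release and the counting program were not given in the sources used here. The authors deposited raw counts per Ensembl gene, without normalization, with a column for each pig and 0 columns unused.

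Counts were tested in R 4.3.3 with edgeR 4.0.16: filterByExpr, TMM scaling, a negative binomial fit with genotype as the only term, and the two-sided quasi-likelihood F test, with Benjamini-Hochberg adjustment over 13402 genes. The limits for a call, p under 0.05 and a log2 fold change above 0.5 in size, follow the study. The SE is the log2 fold change divided by the square root of F. Symbols came from an Ensembl table (14864 identifiers with a symbol) and positions from RefSeq. Ratios used log2(count + 1) and exact permutation over all assignments of pigs. The genes named were the listed genes, those of the ratios, in each other list up to 6 called genes by smallest p and the highest and lowest fold change, and the 3 nearest profiles to *PSMB8*, *NLRC5* and *CD74*. *TAPBP*, *PSMF1*, *IRF1*, *GBP1*, *CXCL10*, *ISG15*, *BST2* and *MX1* were chosen after their values were seen. Also named outside this rule were, among others, the markers *PLIN1*, *CIDEC*, *FABP4*, *CD79A*, *MS4A1* and *LYZ*. The procedure was tested on simulated data. The alternatives were DESeq2 1.42.0, other scalings and filters, a replicate block and each pig left out. The members and lists were chosen with earlier results of these data known. Some lists lack genes with no matched row, and these were not analysed here. Some genes that fall under the naming rule are not reported here.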

Additional observations from a re-analysis of the deposited data

How the results depend on the processing

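The 9 immunoproteasome and antigen processing genes gave 0 calls under each of 13 alternatives, and 94 of their 117 alternative fold changes kept their direction. Of the 23 that turned, *PSMB10* was 0.00 with DESeq2 on all genes with any count and 0.02 in edgeR on the same genes, *PSMB9* was 0.02 with the replicate block, and with library size only *PSMB9*, *PSMB10* and *PSME1* were 0.25, 0.32 and 0.18. Leaving out single pigs gave ranges of -0.31 to 1.07 for *PSMB8*, -0.77 to 1.08 for *PSMB9*, -0.52 to 0.60 for *PSMB10*, -0.37 to 0.11 for *PSME1*, -0.29 to 0.69 for *PSME2*, -0.36 to 1.0 for *TAP1*, -0.30 to 0.91 for *TAP2* and -0.04 to 0.51 for *CD74*. The same ranges for the log2 ratios were -0.85 to 0.26 for *PSMB10* over *PSMB7*, -1.22 to -0.24 for *PSME1* and -1.0 to 0.17 for *PSME2* over *PSME3*, -1.47 to -0.67 for *PSME1* and -1.39 to -0.26 for *PSME2* over *PSMD1*, -0.04 to 0.31 for *PSMB8* over *PSMB9*, -0.15 to 0.22 for *TAP1* over *TAP2*, and, for ratios added after the data were seen, -0.77 to 0.75 for *PSMB8* and -0.99 to 0.50 for *PSMB9* over *PSMB7*.

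Constitutive subunits called higher numbered 13, 0 by adjusted p, 21 with library size only, 8 among the subunits that the study's text does not name, 13 without the 3 cap chaperones, and 1 to 16 with a pig left out. Genes of the pathway lists called higher and lower numbered 4 and 2, 0 and 0 by adjusted p in edgeR (*IFI6* passed in DESeq2, adjusted p = 0.0312), 12 and 1 with library size only, 1 to 8 and 1 to 11 with a pig left out, and 4 lower in both DESeq2 fits. All genes called higher and lower numbered 515 and 581, 0 and 0 by adjusted p (1099 had an unadjusted p under 0.05, and DESeq2 gave 127 adjusted calls on the same genes), 928 and 195 with library size only, and 281 to 729 and 370 to 786 with a pig left out. A fit with the replicate number as a block called 0 of the 9 genes, 16 constitutive subunits, and 7 higher and 6 lower genes of the pathway lists. The numbers were not taken to pair the pigs, since the correlations of same-numbered pigs were 0.004, 0.094 and 0.283 and KI1 correlated best with WT2. The causes of these shifts were not tested. Changes under about 1 log2 unit were beyond what 3 pigs against 3 could resolve for most of the 9 genes.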
